A study of Bos grunniens with 18 samples.

Results

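The transcripts described here are those of the hypoxia-inducible factors (HIFs), of the enzymes and the ubiquitin ligase subunit that control them, and of *VEGFA* and *ADM*, which are among their best known targets, in the whole blood of yaks (*Bos grunniens*), a bovine of the high plateau. The members were chosen by name: *HIF1A*, *EPAS1*, *HIF3A*, *ARNT*, *EGLN1*, *EGLN2*, *EGLN3*, *VHL*, *VEGFA* and *ADM*, 10 genes in all. Of these, 9 are named in the deposited table of 20607 genes. The tenth, *VHL*, carries only its identifier there, ENSBGRG00000013641, and was found by its description, so its values are given apart from the counts of the 9. None of the 10 genes overlaps another gene of the table, and 8 of the 9 named genes passed the filter on low counts and were tested.

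A HIF is a pair of proteins, an alpha subunit (HIF1A, EPAS1 or HIF3A) and the shared partner ARNT. In normal oxygen, the prolyl hydroxylases encoded by *EGLN1*, *EGLN2* and *EGLN3* mark the alpha subunits, and the VHL protein, part of a ubiquitin ligase, binds the marked subunits and sends them to the proteasome. In low oxygen the alpha subunits persist and, with ARNT, raise the transcription of genes of glycolysis, red cell production and vessel growth. This control acts mainly on the protein, which was not measured, and *EPAS1* and *EGLN1* are known from genetic studies of life at high altitude.

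Blood of adult cows aged 4 to 8 years was taken into EDTA at anestrus (the Y-A group), estrus (the Y-E group) and pregnancy (the Y-P group), with 6 libraries a stage and 18 in all. The libraries come from 6 cows followed through the 3 stages, as read from the methods and not from the labels, so that libraries of different stages are not fully independent. Estrus was brought on with a progesterone pessary, PGF2α and GnRH before insemination, so that stage also stands for time and for hormone treatment. No sample from low altitude or low oxygen was analysed, and the comparisons are between stages only.

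Total counts ranged from 30247267 to 48401076 a library, and a floor of 3 counts corresponded to 0.0604 to 0.107 CPM. CPM is the count scaled to a common library size with TMM factors and is the unit of levels here, except where FPKM, the value per length, is named. The summed levels of some cell type markers differed between stages, although most of their ranges overlapped. For 9 neutrophil markers the sum was 4580 to 10400 CPM at anestrus, 5940 to 13900 at estrus and 3590 to 6950 in pregnancy. In the same order, that of 5 T cell markers was 780 to 942, 758 to 1020 and 898 to 1640 CPM. That of 5 red cell markers ran from 604 to 11800, from 161 to 5090 and from 92.6 to 179 CPM. Y-E replicate 6 stood apart in its stage, with 5090 CPM of red cell markers against at most 257 in the other Y-E libraries. Y-A replicate 6, of the same number, was also high, at 11760 CPM against at most 3087 in the other Y-A libraries. Y-E replicate 6 further has no entry in the study's own table of mapping results. Calls of the named genes that change without that library are therefore also given without it. In these mixed cells, fewer cells of a type and less RNA per cell cannot be told apart.

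Per length, *HIF1A* was the most abundant of the 10 transcripts and *HIF3A* the least. The median FPKM over the 18 libraries was 74.8 for *HIF1A*, 34.6 for *EGLN2*, 26 for *EGLN1*, 22 for *ARNT*, 15.2 for *VHL*, 13.2 for *EGLN3*, 9.27 for *EPAS1*, 2.37 for *VEGFA*, 0.0703 for *ADM* and 0 for *HIF3A*. Only 2 steps in this order had ranges that did not overlap. The lowest *HIF1A* value (52.9 FPKM) lay above the highest of *EGLN2* (49.1 FPKM), and the lowest *VEGFA* value (1.17 FPKM) above the highest of *ADM* (0.236 FPKM). Within single libraries the order was steadier than the ranges show: *EGLN1* exceeded *ARNT* and *EPAS1* exceeded *VEGFA* in 18 of 18 libraries, whereas *VHL* exceeded *EGLN3* in only 9.

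**Figure D1:**
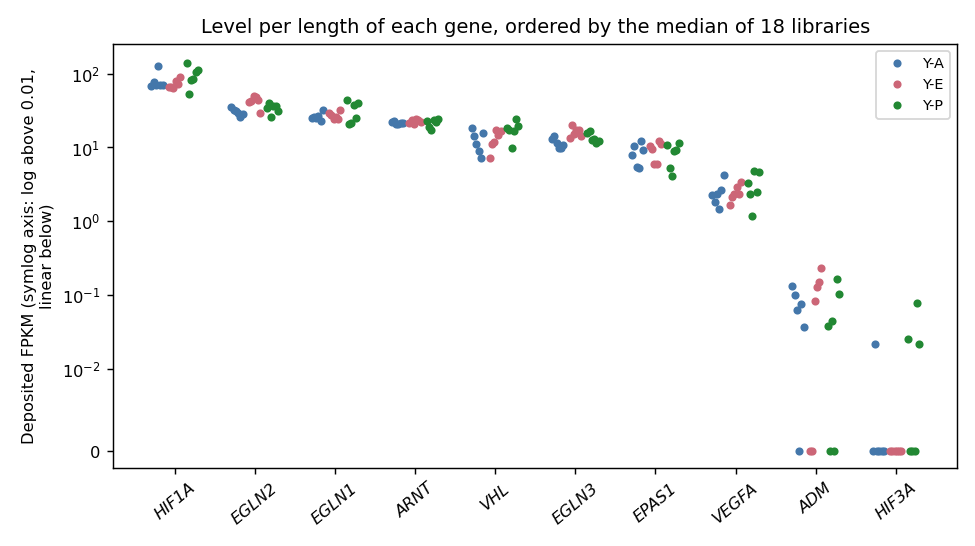
Deposited FPKM of the 10 genes in the 18 libraries (points, coloured by stage), on an axis that is logarithmic above 0.01 and linear below. *HIF1A* stands alone at 52.9 to 137 FPKM, 6 genes share the middle between 4.12 and 49.1 FPKM, and *ADM* and *HIF3A* lie at or near 0.

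Differences between stages were tested on the counts with the quasi-likelihood test of edgeR, with Benjamini-Hochberg adjustment over the 14508 genes tested, and a gene is said to have risen or fallen only at an adjusted p under 0.05. For Y-P against Y-E, 3 of the 8 members tested passed, *ARNT*, *EGLN2* and *EGLN3*, and all 3 were lower in pregnancy. Of all genes tested, 14.4% passed in this comparison, 8.68% as lower and 5.77% as higher. For Y-E against Y-A none of the 8 members passed, where 0.0207% of all genes did, and for Y-P against Y-A none passed, where 5.83% did, 3.61% as lower and 2.22% as higher. At an unadjusted p under 0.05, those shares of all genes were 6.20% and 22.7%. No member that passed also changed by 1 or more on the log2 scale, as 0.0138%, 1.43% and 2.67% of all genes had in Y-E against Y-A, Y-P against Y-A and Y-P against Y-E. Tested over the 3 stages at once, *EGLN2* (adjusted p = 0.0225) and *EGLN3* (adjusted p = 0.0382) passed, against 11% of all genes, and *ARNT* (adjusted p = 0.0550) did not. The comparisons share libraries and are not independent of each other.

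**Figure D2:**
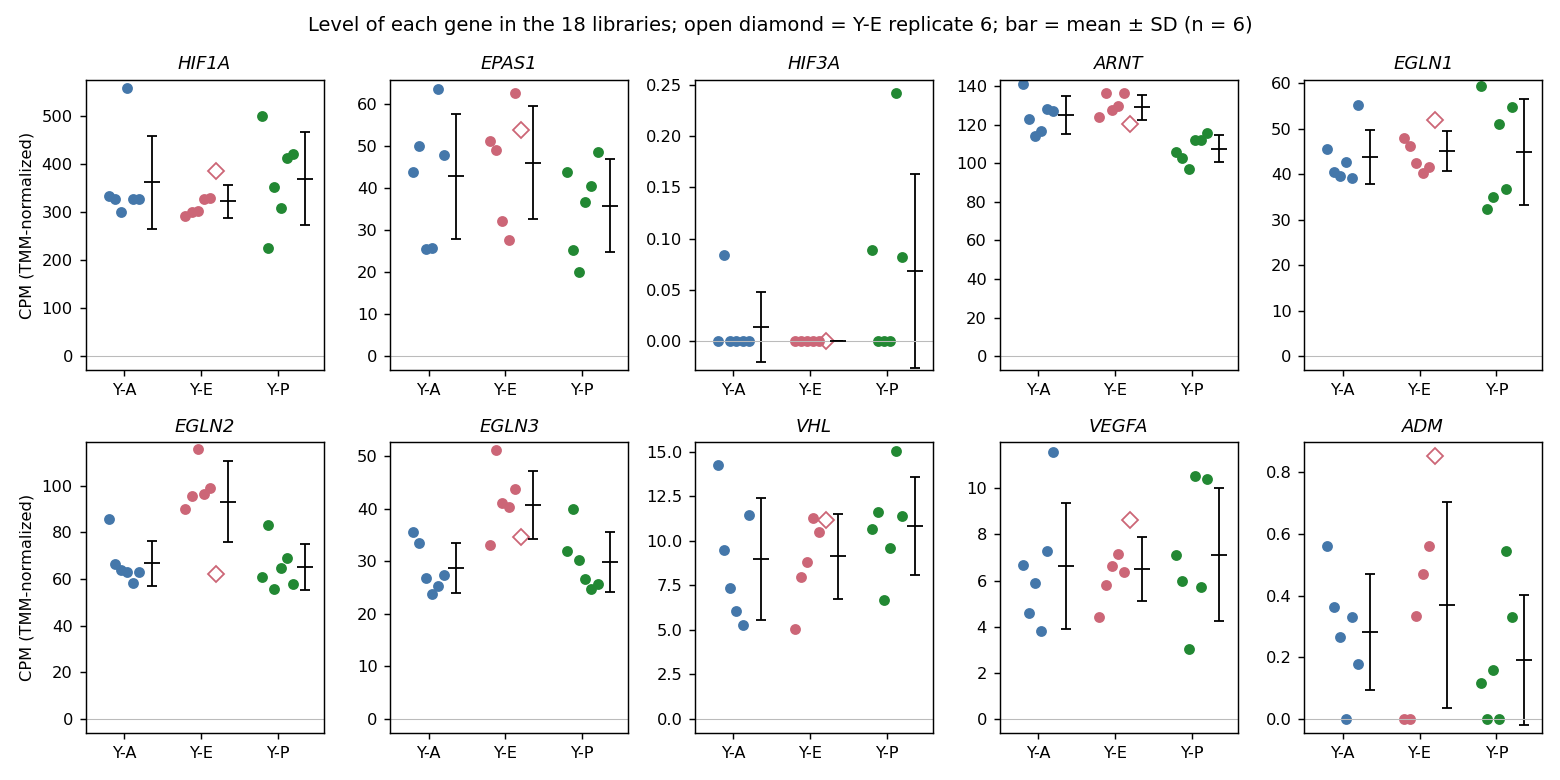
CPM of each of the 10 genes by library (points) with mean and SD of each stage (n = 6) beside them, the vertical axis of each panel being its own and starting at or just below 0. The Y-P points of *ARNT* (96.9 to 116) lie below all Y-E points (121 to 136), and the means of *EGLN2* and *EGLN3* are highest in Y-E. In *EGLN2* the open diamond of Y-E replicate 6 lies among the points of the other stages, and in *EGLN3* the Y-E points overlap those of both other stages.

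*HIF1A* (chromosome 11, 63067618 to 63115267, plus strand) encodes the alpha subunit of HIF-1, which is active in leukocytes and drives glycolytic genes. The lowest, median and highest levels were 301, 328 and 560 CPM at anestrus, 292, 316 and 385 at estrus, and 226, 383 and 502 in pregnancy. The 3 stages overlapped, with Y-P the widest in range and Y-A replicate 4, at 560 CPM, far above the other Y-A libraries, which ended at 334. The level in Y-E was 0.891-fold that in Y-A (95% interval 0.693 to 1.14, adjusted p = 0.999), and the level in Y-P was 1.02-fold that in Y-A (0.795 to 1.31, adjusted p = 0.940) and 1.15-fold that in Y-E (0.892 to 1.47, adjusted p = 0.490). None of these differences exceeded the spread between libraries. Y-E replicate 6 held the highest *HIF1A* level of its stage, and without it Y-E ended at 331 CPM.

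*EPAS1* (chromosome 9, 48821362 to 48925767, plus strand) encodes HIF-2 alpha, known for its part in erythropoietin production and in endothelium. The levels (lowest, median, highest) were 25.5, 45.9 and 63.6 CPM at anestrus, 27.6, 50.2 and 62.5 at estrus, and 20.1, 38.6 and 48.5 in pregnancy. The stages overlapped over most of their range, although 2 Y-P libraries lay below all others. The Y-P level was 0.778-fold the Y-E level (95% interval 0.536 to 1.13, adjusted p = 0.380) and 0.837-fold the Y-A level (0.576 to 1.21, adjusted p = 0.599), and Y-E was 1.08-fold Y-A (0.741 to 1.56, adjusted p = 0.999). The summed level of 7 endothelial markers was 85.9 to 237 CPM a library, most of it from *PECAM1* (median 104 CPM), which leukocytes and platelets also express, and *VWF* (18.5 CPM), which platelets carry. The others were at a median of 3.12 CPM (*TIE1*), 1.48 (*KDR*), 0.970 (*TEK*) and 0.641 (*CDH5*), with *EMCN* at or under 3 counts in 16 of 18 libraries. Of the 6 markers tested 2 were lower in Y-P than in Y-E and 2 lower than in Y-A, and the part of endothelial cells in the *EPAS1* levels was not tested.

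The *EPAS1* levels also varied with the replicate number. Libraries with number 3 averaged 25.9 ± 6.02 CPM over the stages (SD, n = 3) and those with number 4 averaged 30.0 ± 5.81, while number 5 averaged 55.6 ± 13.0 and number 6 averaged 50.1 ± 3.19. Number 3 was thus low and number 5 high, 2.14-fold apart. The numbers accounted for 76.2% of the spread of *EPAS1* within stages, against a median of 43.2% over all genes tested. A test of the numbers, chosen after these levels had been seen, did not pass (edgeR, adjusted p = 0.0542), nor did it without Y-E replicate 6 (adjusted p = 0.122), and 2.73% of all genes passed it. The same share was 65.8% for *EGLN1*, 60.1% for *EGLN3* and 45.9% for *VEGFA*. It was below the median of all genes for *ADM* (42.3%), *EGLN2* (34.2%), *ARNT* (33.6%), *HIF1A* (30.5%) and *VHL* (16.6%). None of these genes passed the test of the numbers (edgeR, adjusted p from 0.211 for *EGLN1* to 0.911 for *ARNT*). That a number marks a cow follows from the study's methods and is not stated in the sample labels.

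**Figure D3:**
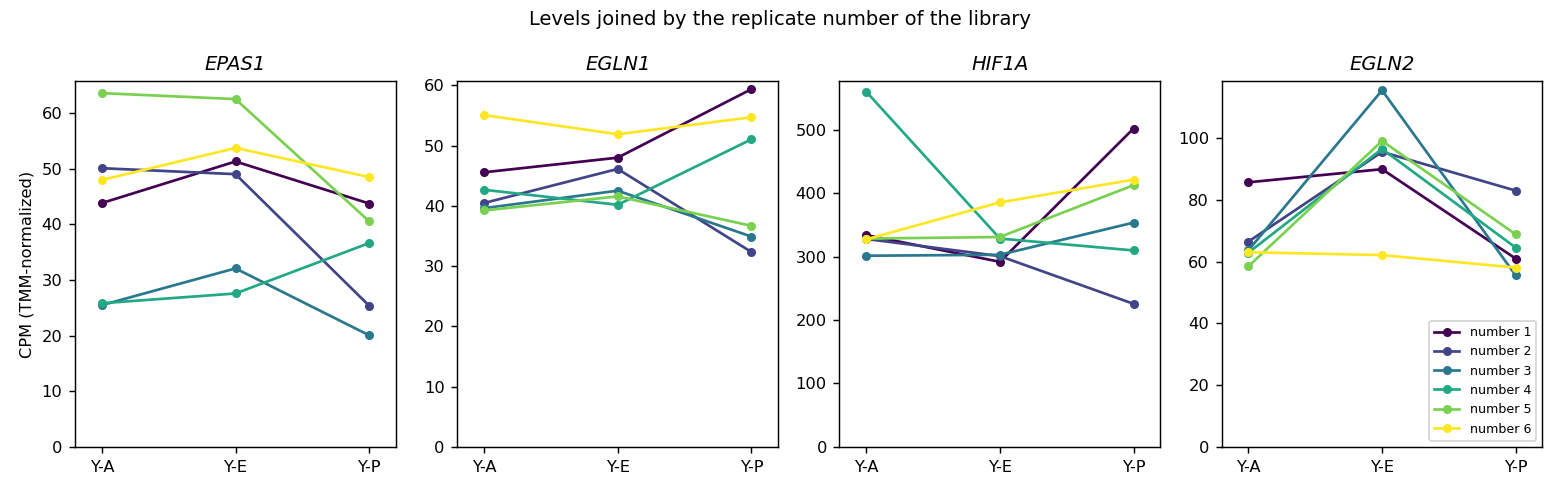
CPM of *EPAS1*, *EGLN1*, *HIF1A* and *EGLN2* at the 3 stages, with libraries of the same replicate number joined by a line. The *EPAS1* lines of numbers 3 and 4 run lowest at anestrus and estrus, whereas most *EGLN2* lines peak at estrus and number 6 stays flat.

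*HIF3A* (chromosome 20, 61989080 to 62028063, minus strand), which encodes the third alpha subunit, several of whose isoforms restrain the others, was not detectable in most libraries. It had 0 counts in 14 of 18 libraries, all 6 of Y-E among them. Its highest count was 12, in Y-P replicate 5, the only library above the floor of 3 counts, so that no fold change is given. It did not pass the filter on low counts and was not tested.

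*ARNT* (chromosome 3, 21251054 to 21324904, minus strand), the beta subunit that every HIF needs, fell between estrus and pregnancy. The levels (lowest, median, highest) were 114, 125 and 141 CPM at anestrus, 121, 128 and 136 at estrus, and 96.9, 109 and 116 in pregnancy. All 6 Y-P libraries were below all 6 Y-E libraries, as were the groups of 6.03% of all genes tested in either direction, and 5 of the 6 were below all Y-A libraries. The Y-P level was 0.834-fold the Y-E level (95% interval 0.746 to 0.931, log2 fold change −0.26, SE 0.08, edgeR adjusted p = 0.0272) and lower for 6 of 6 numbers. Against Y-A it was 0.861-fold (0.771 to 0.962, adjusted p = 0.0970), also lower for 6 of 6 numbers, but past the threshold only by DESeq2 (adjusted p = 0.0349). Y-E and Y-A did not differ beyond their spread (1.03-fold, 0.925 to 1.15, adjusted p = 0.999).

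The fall of *ARNT* is a change relative to the other transcripts of the library. In deposited FPKM, which carries no TMM correction, the mean was 21.6 ± 0.692 at anestrus, 22.5 ± 1.33 at estrus and 21.5 ± 2.74 in pregnancy (SD, n = 6), and the limma test on log2(FPKM + 1) gave −0.07 (adjusted p = 0.596). With scaling to library size alone the log2 fold change was −0.12 (adjusted p = 0.361). The median change of all genes was then 0.18 rather than 0.04, and relative to that median *ARNT* was at −0.30 under both scalings. A change of scaling shifts all genes by nearly the same amount, so this equality was fixed in advance and is no check of the fall. The call was also lost without Y-E replicate 2 (adjusted p = 0.0636), Y-E replicate 5 (0.0661) or Y-P replicate 3 (0.0588).

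Among the prolyl hydroxylases, *EGLN2* and *EGLN3* had their highest levels in estrus and fell by pregnancy, while *EGLN1* stayed within its spread. *EGLN1* (chromosome 27, 1516992 to 1580170, minus strand) encodes PHD2, the main hydroxylase of HIF-1 alpha in most tissues. The levels (lowest, median, highest) were 39.2, 41.6 and 55.1 CPM at anestrus, 40.2, 44.3 and 51.9 at estrus, and 32.4, 43.9 and 59.4 in pregnancy. The medians nearly coincided, and Y-P held both the lowest and the highest libraries. The fold was 1.03 for Y-E over Y-A (95% interval 0.832 to 1.27), 1.02 for Y-P over Y-A (0.828 to 1.27) and 0.995 for Y-P over Y-E (0.805 to 1.23), with edgeR adjusted p between 0.917 and 0.999.

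*EGLN2* (chromosome 20, 66001290 to 66010045, minus strand) encodes PHD1, a hydroxylase found largely in the nucleus. Its lowest, median and highest levels were 58.5, 63.4 and 85.7 CPM at anestrus, 62.1, 96.0 and 116 at estrus, and 55.5, 62.8 and 83.0 in pregnancy. Of the Y-E libraries 5 lay above every Y-A and every Y-P library, from 90.0 CPM upward, and the sixth, replicate 6, lay at 62.1 CPM among the others. The Y-P level was 0.700-fold the Y-E level (95% interval 0.575 to 0.852, log2 fold change −0.51, SE 0.14, edgeR adjusted p = 0.0165), lower for 6 of 6 numbers. Without Y-E replicate 6 the log2 fold change was −0.61 (SE 0.12, adjusted p = 0.00301), where 13.7% of all genes passed, and the ranges did not overlap, as for 7.97%. The call held in all 18 fits that left out 1 library, with adjusted p up to 0.0477.

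The same gene was 1.40-fold higher in Y-E than in Y-A (95% interval 1.15 to 1.70), for 5 of 6 numbers, which did not pass after adjustment (edgeR adjusted p = 0.374). It ranked 80 of 14508 genes by p in that comparison, in which only 3 genes passed. Without Y-E replicate 6 the log2 fold change was 0.57 (SE 0.12, adjusted p = 0.0617), where 0.157% of all genes passed, and the ranges of Y-E and Y-A no longer overlapped, as for 1.4%. Y-P and Y-A lay close together (0.977-fold, 0.803 to 1.19, adjusted p = 0.912).

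*EGLN3* (chromosome 17, 47417320 to 47471767, minus strand) encodes PHD3, itself a HIF target and known for its part in the survival of neutrophils in low oxygen. Its lowest, median and highest levels were 23.8, 27.1 and 35.6 CPM at anestrus, 33.2, 40.7 and 51.2 at estrus, and 24.8, 28.5 and 40.03 in pregnancy. Of the Y-P libraries 5 lay below every Y-E library, and the groups overlapped through Y-P replicate 2 at 40.03 CPM. The Y-P level was 0.735-fold the Y-E level (95% interval 0.599 to 0.903, log2 fold change −0.44, SE 0.14, edgeR adjusted p = 0.0417), again lower for 6 of 6 numbers. Of the 18 fits without 1 library, 9 kept this call. It was lost without Y-A replicate 3, without any of Y-E replicates 2, 3, 4 and 5 and without any of Y-P replicates 3, 4, 5 and 6, with adjusted p from 0.0511 to 0.111. Y-E was 1.41-fold Y-A (1.15 to 1.74, higher for 5 of 6 numbers), which did not pass (adjusted p = 0.374), and Y-P was 1.04-fold Y-A (0.847 to 1.28, adjusted p = 0.858).

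The calls of *EGLN2* and *EGLN3* also rest on the scaling. With library size alone their log2 fold changes between Y-P and Y-E were −0.37 (edgeR adjusted p = 0.0687) and −0.30 (adjusted p = 0.170), and with limma on log2(FPKM + 1) −0.31 (adjusted p = 0.0820) and −0.24 (adjusted p = 0.171). Relative to the median change of all genes they were −0.56 and −0.49 with TMM, and −0.55 and −0.48 with library size alone. This near equality follows from the shift common to all genes and is no check of the falls. In the same comparison 6 of 9 neutrophil markers were lower and 4 of 5 T cell markers higher in Y-P (8 of 9 and 2 of 5 without Y-E replicate 6). The part of the neutrophil and T cell share in the falls of *ARNT*, *EGLN2* and *EGLN3* was not tested.

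**Figure D4:**
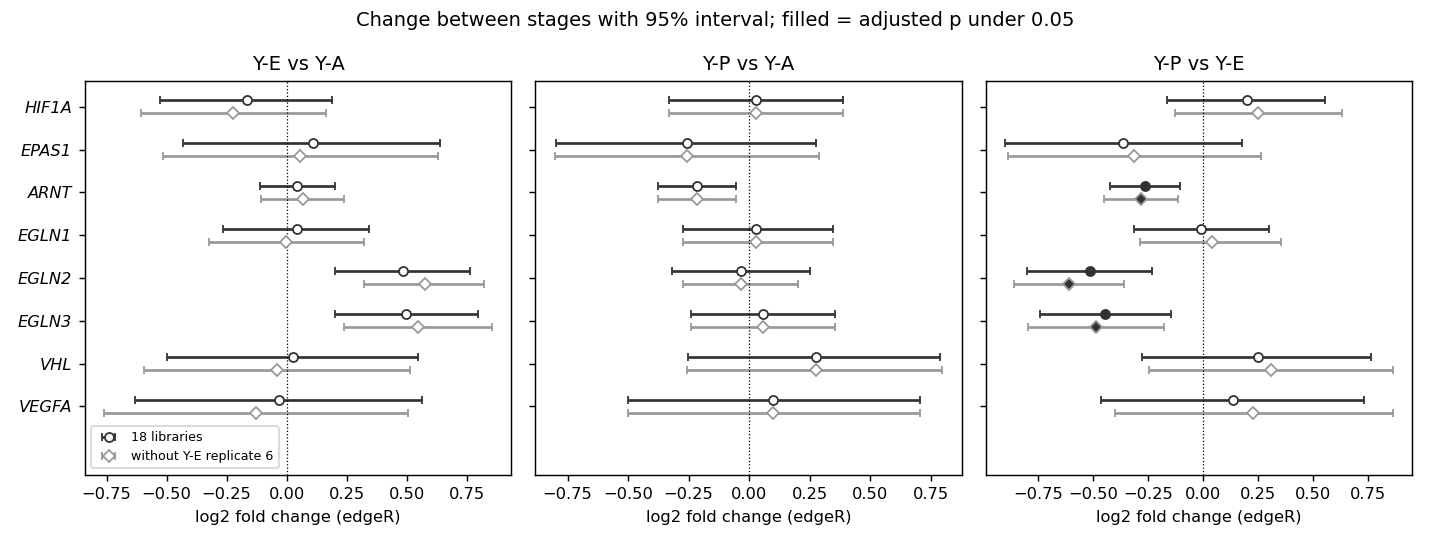
Fold changes on the log2 scale (edgeR, with 95% intervals) of 7 tested members and *VHL* in the 3 comparisons, over all 18 libraries (circles) and without Y-E replicate 6 (diamonds). Filled symbols, with adjusted p under 0.05, appear only for Y-P against Y-E, for *ARNT*, *EGLN2* and *EGLN3*, at −0.26, −0.51 and −0.44 over all libraries, and the interval of *ADM* is too wide for this axis and is given in the text.

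*VHL* (chromosome 22, 49315925 to 49321518, plus strand), whose protein recognizes the hydroxylated alpha subunits, was expressed in every library, at 5.03 to 15 CPM. Its lowest, median and highest levels were 5.27, 8.41 and 14.2 CPM at anestrus, 5.03, 9.66 and 11.3 at estrus, and 6.69, 11 and 15 in pregnancy. The stages overlapped throughout. The fold was 1.02 for Y-E over Y-A (95% interval 0.708 to 1.46, edgeR adjusted p = 0.999), 1.21 for Y-P over Y-A (0.840 to 1.73, adjusted p = 0.563) and 1.19 for Y-P over Y-E (0.826 to 1.70, adjusted p = 0.562). *ELOC*, which encodes the elongin that links VHL to its ligase, was at 18.8 ± 3.02 CPM at anestrus, 18.5 ± 2.57 at estrus and 13.6 ± 5.29 in pregnancy (SD, n = 6, adjusted p = 0.149 for Y-P against Y-E, and 0.0497 with libraries paired by number). *CUL2*, *ELOB* and *RBX1*, other parts of the complex, were not analysed here, since these names were not found in the table.

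*VEGFA* (chromosome 24, 18139554 to 18155207, minus strand), the vascular growth factor, was low in blood. Its lowest, median and highest levels were 3.83, 6.30 and 11.6 CPM at anestrus, 4.42, 6.49 and 8.62 at estrus, and 3.05, 6.54 and 10.5 in pregnancy. The medians were nearly equal and the ranges overlapped. The fold was 0.979 for Y-E over Y-A (95% interval 0.646 to 1.48), 1.07 for Y-P over Y-A (0.708 to 1.63) and 1.1 for Y-P over Y-E (0.724 to 1.66), with edgeR adjusted p from 0.807 to 0.999. Libraries with number 6 averaged 10.2 ± 1.48 CPM over the stages and those with number 3 averaged 5.19 ± 1.89 (SD, n = 3). The test of the numbers did not pass for *VEGFA* (edgeR, adjusted p = 0.389).

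*ADM* (chromosome 13, 43538321 to 43541675, plus strand) encodes adrenomedullin, a vasodilator peptide induced by low oxygen, and was at the limit of detection. Its counts ran from 0 to 20 at anestrus (median 10), from 0 to 37 at estrus (median 13.5) and from 0 to 27 in pregnancy (median 5.5), and 5 of the 18 libraries had none. The stages overlapped. The interval of the fold was wide in each comparison, from 0.286 to 5.96 for Y-E over Y-A, from 0.147 to 3.17 for Y-P over Y-A and from 0.113 to 2.42 for Y-P over Y-E, so that a change was not detectable in these libraries (edgeR adjusted p from 0.609 to 0.999). The highest count, 37, was in Y-E replicate 6.

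Of 14 other ligands and receptors of the VEGF and adrenomedullin systems, 9 are named in the table and 6 were tested, and none passed in any comparison over the 18 libraries without pairing. Their median log2 fold change for Y-P against Y-E was −0.40, against 0.04 for all genes tested, and −0.24 without Y-E replicate 6. *RAMP2*, which turns the receptor CALCRL into a receptor for adrenomedullin, was the most abundant per length, with a median of 83.9 FPKM. *CALCRL* itself measured 28.1 ± 17.2 CPM in Y-E and 16.2 ± 8.05 in Y-P (SD, n = 6, adjusted p = 0.184), with 21.5 ± 6.81 CPM in Y-E without replicate 6 (n = 5, edgeR adjusted p = 0.499). *NRP2*, a co-receptor of VEGF, measured 33.2 ± 13.3 and 17.8 ± 9.77 CPM (adjusted p = 0.0690). Its log2 fold change for Y-P against Y-E went from −0.90 to −0.67 without Y-E replicate 6 (edgeR adjusted p = 0.173). Without Y-E replicate 6, *NRP2* passed as lower in Y-P than in Y-A (−1.09, edgeR adjusted p = 0.0426, against 0.0545 over all libraries). With libraries paired by replicate number it passed as lower in Y-P against Y-A (−1.14, adjusted p = 0.00228) and against Y-E (−0.97, adjusted p = 0.00253). *KDR*, the main signalling receptor of VEGFA, was at 1.48 CPM in the median library.

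Of 20 listed cofactors, regulators and VHL partners, 14 are named and 13 were tested. For Y-P against Y-E 2 fell and 1 rose (23.1%, against 14.4% of all genes), 10 did not pass and the list median was −0.09 on the log2 scale. For Y-P against Y-A 2 fell (15.4%, against 5.83%), and for Y-E against Y-A none passed. The genes that fell in both were *EP300* and *CREBBP*, the paired acetyltransferases that HIF recruits, as do many other transcription factors. *EP300* went from 632 ± 59.4 CPM in Y-A and 707 ± 86.1 in Y-E to 378 ± 112 in Y-P (log2 fold change −0.90, SE 0.16, edgeR adjusted p = 0.00167 against Y-E, and −0.74, adjusted p = 0.0146 against Y-A). *CREBBP* went from 570 ± 92.7 and 658 ± 92.6 to 372 ± 113 CPM (−0.83, SE 0.18, adjusted p = 0.00526 against Y-E, and −0.62, adjusted p = 0.0466 against Y-A). *USP20*, a deubiquitinase reported to act on HIF-1 alpha, rose from 46.0 ± 5.21 in Y-E to 70.9 ± 18.1 CPM in Y-P (0.62, SE 0.17, adjusted p = 0.0186). Against Y-A it passed only with libraries paired by number (0.55, adjusted p = 0.0293, against 0.0523). *HIF1AN*, the asparagine hydroxylase that blocks the binding of these acetyltransferases, was at 38.1 ± 1.42 CPM in Y-E and 35.2 ± 4.79 in Y-P and did not pass (adjusted p = 0.515). For Y-P against Y-E the calls of *EP300*, *CREBBP* and *USP20* held in all 18 fits without 1 library, whereas that of *CREBBP* against Y-A held in 4.

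Of 59 listed HIF targets other than the members, 46 are named and 42 were tested. The lists were matched by name only, and names not found, among them *LDHA*, *GAPDH*, *SLC2A3*, *BNIP3L* and *EPO*, are missing from the shares below. For Y-P against Y-E 8 fell and 2 rose (23.8%, against 14.4% of all genes), with a list median of −0.13 on the log2 scale against 0.04 for all genes. For Y-P against Y-A 5 fell and 1 rose (14.3%, against 5.83%), with a median of −0.04 against 0.03, and for Y-E against Y-A none passed and the median was 0.08. With library size alone, 5 fell and 3 rose for Y-P against Y-E (median 0.02 against 0.18 for all genes), and 1 fell and 2 rose for Y-P against Y-A (0.12 against 0.19). Without Y-E replicate 3 or without Y-E replicate 5, 6 targets passed for Y-P against Y-E in place of 10.

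Of the 16 glycolytic targets tested, 4 fell from estrus to pregnancy and 1 rose (31.2%, against 14.4% of all genes). *SLC16A3*, the lactate exporter MCT4, went from 343 ± 93.3 CPM in Y-E to 168 ± 34.4 in Y-P (log2 fold change −1.03, SE 0.17, edgeR adjusted p = 0.00105). *PFKFB3* and *PFKFB4*, which make the activator of phosphofructokinase, went from 421 ± 115 to 210 ± 44.3 CPM (−1, adjusted p = 0.00140) and from 118 ± 18.9 to 66.3 ± 9.21 CPM (−0.84, adjusted p = 0.00115). *ALDOA*, the aldolase, also fell (1290 ± 299 to 860 ± 187 CPM, adjusted p = 0.0262) and is named here after its values were seen. Its call held in 13 of the 18 fits without 1 library and was lost with library size alone (adjusted p = 0.0548). *PDK1*, the kinase that inhibits pyruvate dehydrogenase, moved the other way, from 36 ± 6.30 to 63.7 ± 14.6 CPM (0.82, SE 0.16, adjusted p = 0.00247). The remaining 11 of the 16 tested did not pass, among them *PGK1* (274 ± 32.3 and 263 ± 54.1 CPM, adjusted p = 0.808) and *ENO1* (802 ± 106 and 767 ± 210 CPM, adjusted p = 0.823).

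Among the other targets, 4 of 26 fell and 1 rose between Y-E and Y-P (19.2%, against 14.4% of all genes). *NDRG1*, a gene of stress response and differentiation, went from 221 ± 37.8 to 119 ± 17.7 CPM (−0.89, SE 0.13, edgeR adjusted p = 0.000443). *KDM4B*, a histone demethylase, went from 202 ± 37.7 to 146 ± 17.4 CPM (−0.46, adjusted p = 0.0208), a call lost with library size alone (−0.31, adjusted p = 0.119). *P4HA1*, a collagen prolyl hydroxylase named after its values were seen, fell by 0.63 on the log2 scale (adjusted p = 0.0288). This call held in 11 of the 18 fits without 1 library and was lost without Y-E replicate 6 (adjusted p = 0.0563) and with library size alone (adjusted p = 0.0657). *CA9*, a carbonic anhydrase that is among the most used marks of HIF activity, was higher in Y-P (5.41 ± 2.1 against 3.11 ± 0.990 CPM, 0.80, adjusted p = 0.0480), but only 4 of the 18 fits without 1 library kept this call, and its adjusted p was 0.0844 without Y-E replicate 6 and 0.0647 with libraries paired by number. *BNIP3*, a mitophagy receptor, was at 31.3 ± 3.75 and 25.6 ± 2.93 CPM and did not pass (adjusted p = 0.0704), but passed as lower in Y-P without Y-E replicate 6 (−0.35, adjusted p = 0.0299).

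Against anestrus the genes that fell in pregnancy included *NDRG1* (−0.65, SE 0.13, edgeR adjusted p = 0.00894), *PFKFB3* (−0.65, adjusted p = 0.0355), *PFKFB4* (−0.50, adjusted p = 0.0429) and *BHLHE40*, a repressor of transcription (−0.50, adjusted p = 0.0468). Against Y-E, *BHLHE40* did not pass (−0.43, adjusted p = 0.0527), but did so without Y-E replicate 6 (adjusted p = 0.0465) or with libraries paired by number (adjusted p = 0.0326). *PDK1* rose (0.71, adjusted p = 0.0151). The calls of *NDRG1* and *PDK1* held in all 18 fits without 1 library, and those of *PFKFB3*, *PFKFB4* and *BHLHE40* in 7 to 10. The neutrophil markers had a median log2 fold change of −1.48 between estrus and pregnancy (6 of 9 lower) and of −0.53 between anestrus and pregnancy (none of 9 passed). Platelet markers were lower in Y-P in both comparisons (3 of 5 each time). Red cell markers were lower in Y-P than in Y-A (5 of 5, median −5.33) and than in Y-E (3 of 5, and 1 of 5 without Y-E replicate 6). T cell markers were higher in Y-P than in Y-A (3 of 5) and than in Y-E (4 of 5). Their part in the target changes was not tested.

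**Figure D5:**
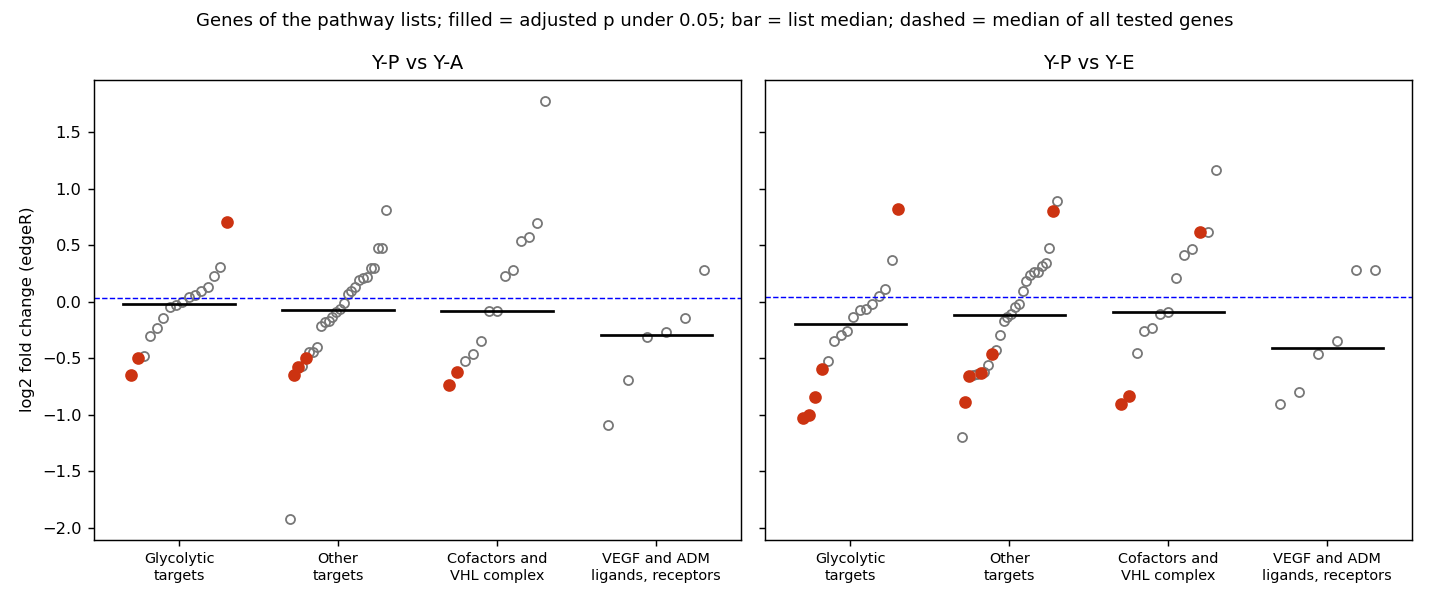
Log2 fold change (edgeR) of each tested gene of the 4 pathway lists for pregnancy against anestrus (Y-A) and against estrus (Y-E), with list medians (bars) and the median of all tested genes (dashed line). Filled points (adjusted p under 0.05) number 5 of 16, 5 of 26, 3 of 13 and 0 of 6 for Y-P against Y-E, most of them below 0. Of all genes tested, 14.4% passed in that comparison.

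The transcripts whose log2 CPM followed that of the 3 main HIF subunits most closely over the 18 libraries are given as a description, since these libraries share cows, stages and cell mixture. For *HIF1A* they were *TRIQK* (Pearson r = 0.853, Spearman rho = 0.748), *CLIC4* (0.846 and 0.577) and *SNAPC1* (0.835 and 0.715). Without the 2 libraries farthest from the median of *HIF1A*, Y-A replicate 4 and Y-P replicate 1, r was 0.708, 0.737 and 0.821. For *EPAS1* they were *ITGA4*, a leukocyte integrin subunit (r = 0.850, rho = 0.810), *CCNL1* (0.816 and 0.775) and *HNRNPLL* (0.815 and 0.721), with r of 0.784, 0.703 and 0.748 without Y-P replicates 2 and 3. For *ARNT* they were *ADAP2* (r = 0.926, rho = 0.948), *NIBAN1* (0.897 and 0.870) and ENSBGRG00000000421, described as nuclear factor I C (0.885 and 0.895), with r of 0.917, 0.836 and 0.822 without the same 2 libraries. Within stages, r fell to 0.786, 0.696 and 0.689 for the genes that followed *ARNT*, and stayed between 0.809 and 0.864 for those that followed *HIF1A* and *EPAS1*.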

How the data were processed

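Whole-blood RNA of 18 libraries was sequenced by poly(A) selection. The submitters' processing notes name cutadapt 1.9, HISAT2 2.2.1, StringTie 2.1.6, DESeq2 and edgeR. The authors aligned the reads to the Ensembl *Bos grunniens* genome and deposited FPKM values, which the study's methods derive with StringTie and ballgown. The authors also deposited whole-number counts, and how these were made is not given in the sources used here.

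The tests on counts used edgeR 4.0.16 under R 4.3.3, with TMM factors, filterByExpr and 1 quasi-likelihood model of stage for the 18 libraries. Adjusted p-values are Benjamini-Hochberg values over all genes tested. CPM values carry the TMM factors (0.871 to 1.12). The script was tested on simulated data, with 100 genes changed 1.5-fold and 100 changed 2-fold in Y-P. It recovered 26% and 64% of them for Y-P against Y-E, and 28% and 63% for Y-P against Y-A. False calls numbered 6 in each comparison. A gene that did not pass may therefore still differ by such a fold. Alternatives were library-size scaling, DESeq2 size factors, DESeq2 1.42.0, no filter, a stricter filter (10 counts in 12 libraries), limma 3.58.1 on log2(FPKM + 1) and log2(FPKM + 0.1), only the stages compared, a block for the replicate number, and leaving out each library. Depth gives counting error only, while SDs and SEs cover the spread between libraries. The p-values set a stage difference against that spread, and the main model treats the 18 libraries as independent.

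The replicate numbers were taken to mark the 6 cows, from the study's methods. Deviations from the stage means of same-numbered libraries correlated at 0.104 to 0.472 (Y-E and Y-A), −0.0436 to 0.333 (Y-P and Y-A) and −0.0472 to 0.372 (Y-P and Y-E).

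The members and gene lists were chosen with earlier results of these data known. Named were all members, from each pathway list up to 3 risen and 3 fallen genes of smallest adjusted p, list genes needed to describe a member, and the 3 genes most correlated with *HIF1A*, *EPAS1* and *ARNT*. An item that the rule names is not reported here. Other list genes given with values were added after these were seen.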

Additional observations from a re-analysis of the deposited data

Results flagged for a closer look

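In 3 of the 27 groups of 6 checked, 1 library lay apart from the rest by more than Dixon's 95% limit for the gap over the range, which chance gives in about 1 of 20 groups. *HIF1A* in Y-A replicate 4 was at 560 CPM, the highest of the 18 libraries, with a gap of 0.834 of the range on the log2 scale. *EGLN2* in Y-A replicate 1 was at 85.7 CPM, above the other Y-A libraries (0.664 of the range on the log2 scale). *ADM* in Y-A replicate 4 was at 0 CPM on no counts, while the other Y-A libraries had 5 to 20 counts (0.656 of the range on the log2 scale). None of the 3 is Y-E replicate 6.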

How the results depend on the processing

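For Y-P against Y-E 3 members passed by default, 0 with library size alone or with limma at either pseudocount, 1 when only these stages were fitted (*EGLN2*), and 1 to 3 when 1 library was left out (1 without Y-E replicate 2, Y-E replicate 5 or Y-P replicate 3). With the replicate block, which pairs libraries by number, the 3 members passed (adjusted p = 0.0360 for *ARNT*, 0.0169 for *EGLN2* and 0.0155 for *EGLN3*), and it changed no call of a member. For Y-P against Y-E the block also passed the targets *ALDOC* (adjusted p = 0.0392), *MXI1* (0.0200) and *HMOX1* (0.0139), named after their values were seen. Without the filter *EGLN3* lost its call (adjusted p = 0.0615). For Y-P against Y-A DESeq2 passed 1 member in place of 0. Over any stage 2 passed by default, 1 without the filter and 0 to 3 without 1 library. Of the targets, 10 passed for Y-P against Y-E (16 with DESeq2, 6 to 15 without 1 library), 6 for Y-P against Y-A (3 with library size alone or no filter, 2 to 6 without 1 library, under 4 without Y-A replicate 1, 2, 5 or 6, Y-E replicate 5 or Y-P replicate 2, 3, 4 or 5) and 0 for Y-E against Y-A (1 with DESeq2).

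Directions that passed in no fit turned as follows on the log2 scale. *EGLN1* for Y-P against Y-E was 0.15 with library size alone, 0.14 and 0.15 with limma at pseudocounts of 1 and 0.1, and 0.01 with only these stages. *EGLN2* for Y-P against Y-A was 0.14, 0.16 and 0.17 with library size and limma. *VEGFA* for Y-E against Y-A was 0.01, 0.02, 0.04, 0 and 0.07, and *ADM* −0.02 and −0.30 with the block over 18 and 17 libraries. Without 1 library, the ranges across 0 were −0.08 to 0.20 for *HIF1A* (Y-P against Y-A), −0.01 to 0.25 for *EPAS1* (Y-E against Y-A), 0 to 0.10, −0.06 to 0.11 and −0.10 to 0.07 for *EGLN1* (estrus against anestrus, pregnancy against anestrus, pregnancy against estrus), −0.12 to 0.03 for *EGLN2* and −0.04 to 0.11 for *EGLN3* (Y-P against Y-A), −0.09 to 0.20 for *VHL* and −0.05 to 0.67 for *ADM* (Y-E against Y-A), and −0.15 to 0.18, −0.04 to 0.30 and −0.01 to 0.29 for *VEGFA* in the same order as for *EGLN1*. The scaling also moved the share of lower calls among all genes for Y-P against Y-E from 60.1% to 29.7% with library size alone. Genes passing for Y-E against Y-A numbered 3, or 67 with DESeq2, 14 with the block and 23 without Y-E replicate 6, and for Y-P against Y-A 846, or 1516 with DESeq2, 1333 with library size alone, 2116 and 1928 with limma, 1282 with the block and 482 with only these stages. The causes were not tested. No library had more than 37 counts of *ADM* or 12 of *HIF3A*, and the effect of depth was not tested.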

Other observations

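The table's own annotation was read as a further pair of lists, chosen after the data had been seen and without the members. Of the 107 genes annotated to the KEGG HIF-1 signaling pathway, 82 were tested, and for Y-P against Y-E 18 fell and 4 rose (26.8%, against 14.4% of all genes), with a median log2 fold change of −0.20. The genes that fell include *NFKB1*, a subunit of NF-kappa B (246 ± 21.7 to 159 ± 13 CPM, adjusted p = 0.000443), *IL6R*, the interleukin-6 receptor (433 ± 46.8 to 241 ± 39.6 CPM, adjusted p = 0.000578), and *STAT3* (507 ± 92.6 to 336 ± 59.4 CPM, adjusted p = 0.0124). Those that rose include *PDHA1* (61.3 ± 7.17 to 78 ± 6.27 CPM, adjusted p = 0.0181) and *PDHB* (60.1 ± 5.07 to 82.5 ± 17.9 CPM, adjusted p = 0.0205), subunits of pyruvate dehydrogenase, the enzyme that PDK1 inhibits. For Y-P against Y-A 9 fell and 1 rose (12.2%, against 5.83% of all genes), and for Y-E against Y-A none passed.

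Of the 60 genes annotated to the response to hypoxia, 53 were tested, and 9 fell and 1 rose for Y-P against Y-E (18.9%, against 14.4% of all genes), with a median of −0.05. Among them *UCP2*, a mitochondrial carrier, went from 2770 ± 886 to 1240 ± 109 CPM (adjusted p = 0.0008). For Y-P against Y-A 6 fell and none rose (11.3%, against 5.83% of all genes). For Y-P against Y-E without Y-E replicate 6, 6 fell and 2 rose (15.1%, against 13.7% of all genes). *ALAS2*, the heme synthesis enzyme of red cells, was 813 ± 1690 CPM in Y-E and 64.9 ± 27.6 in Y-P and passed (adjusted p = 0.0249), but not without that library (adjusted p = 0.341). All values are mean ± SD over 6 libraries, with the adjusted p of the edgeR test.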
